A study of Bos taurus with 55 samples.

Results

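The 6 genes described here carry preformed long-chain fatty acids from the blood into the metabolism of the bovine mammary gland. They are LPL, VLDLR, CD36, FABP3, DBI and ACSL1, taken by gene symbol out of the 6636 named genes among the 10680 tested probe sets. All 6 were found, each with 1 probe set, so no choice between probe sets was needed.

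Biopsies were taken from 28 lactating Holstein-Friesian cows at the end of each of 2 feeding periods, and each biopsy gave 1 Affymetrix array. In period I, the oil period, groups of 7 cows ate a diet with 2.7% oil for 23 days, to a mean of 176 days in milk. The oil was rapeseed, rich in oleic acid, or soybean, rich in linoleic acid, or linseed, rich in alpha-linolenic acid, or a mixture of these 3 in equal parts. In period II, the control period, the same cows received the diet without added oil for 28 days, to a mean of 204 days in milk. All cows grazed by day in both periods and ate a silage and concentrate ration at night. The 55 arrays are 28 of the oil period and 27 of the control period, because cow 28 (linseed oil) has only an oil period array here. Since no cow had the control diet first, the effects of oil, of period order and of advancing lactation cannot be told apart. The number of arrays limits the precision of every value below.

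Milk fat in ruminants is made partly of fatty acids synthesised in the gland and partly of long-chain fatty acids taken from blood lipoproteins. Lipoprotein lipase frees the latter at the capillary wall, membrane proteins such as CD36 help them enter the secretory cell, and ACSL1 joins them to coenzyme A. FABP3 carries free fatty acids and DBI carries acyl-CoA through the cytosol towards the enzymes that assemble triacylglycerol.

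Values are log2 of the deposited intensity, and a change is the level in the oil period minus that in the control period of the same cow. A gene is called where limma's test, adjusted over all 10680 probe sets by Benjamini and Hochberg, gave a p under 0.05. The tissue label was checked against 6 milk protein genes: CSN1S1, CSN1S2, CSN3, LALBA, PAEP and GLYCAM1 averaged between 13.06 and 14.16, brighter than 99.9% of probe sets. Of the 55 arrays, 48 had a mean correlation with the other arrays of 0.961 or more. The other 7 arrays had 0.911 to 0.951 and are called apart: cows 10 and 12 (rapeseed oil) and cow 5 (linseed oil) in the oil period, and cows 1, 2, 5 and 15 in the control period, formerly on mixture, soybean, linseed and linseed oil. Array names carry 2 prefixes, here called batches. Batch 1 holds 25 oil period and 2 control period arrays, and batch 2 holds 3 oil period and 25 control period arrays.

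All members but VLDLR were bright. Mean levels over the 55 arrays were 11.93 ± 1.17 for LPL, 12.27 ± 0.82 for CD36, 12.49 ± 1.28 for FABP3, 11.03 ± 0.64 for ACSL1 and 9.87 ± 0.29 for DBI (SD, n = 55), each above at least 97.8% of the probe sets. VLDLR, which binds triacylglycerol-rich lipoproteins at the cell surface, was dimmer at 5.12 ± 0.63, above 69.9% of the probe sets. Probe sets differ in affinity, so these values do not rank the transcripts of different genes. The 9 listed adipocyte markers had mean levels from 1.41 to 8.15. PLIN1 (1.90), LIPE (1.89), LEP (1.69) and CIDEC (1.41) were dim, with at most 16.8% of probe sets dimmer than any of these 4. ADIPOR2 (4.04), CFD (5.79), PNPLA2 (6.46) and GPD1 (8.15) were brighter, above 59.0% to 91.9% of the probe sets.

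The spread between cows differed among the members once the arrays apart were set aside. FABP3 was the steadiest in the oil period, with an SD of 0.11 over 25 arrays. Only 4.22% of the 450 probe sets with a mean level above 9 varied less, and their median SD was 0.22. In the control period its SD was 0.19 over 23 arrays, and 43.6% of those probe sets varied less. CD36 had SDs of 0.15 and 0.20 in the oil and control periods, LPL of 0.22 and 0.33, ACSL1 of 0.24 and 0.23, DBI of 0.27 and 0.28, and VLDLR of 0.47 and 0.44. LPL was the most variable bright member in the control period, where 83.3% of the same probe sets had a lower SD.

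**Figure D1:**
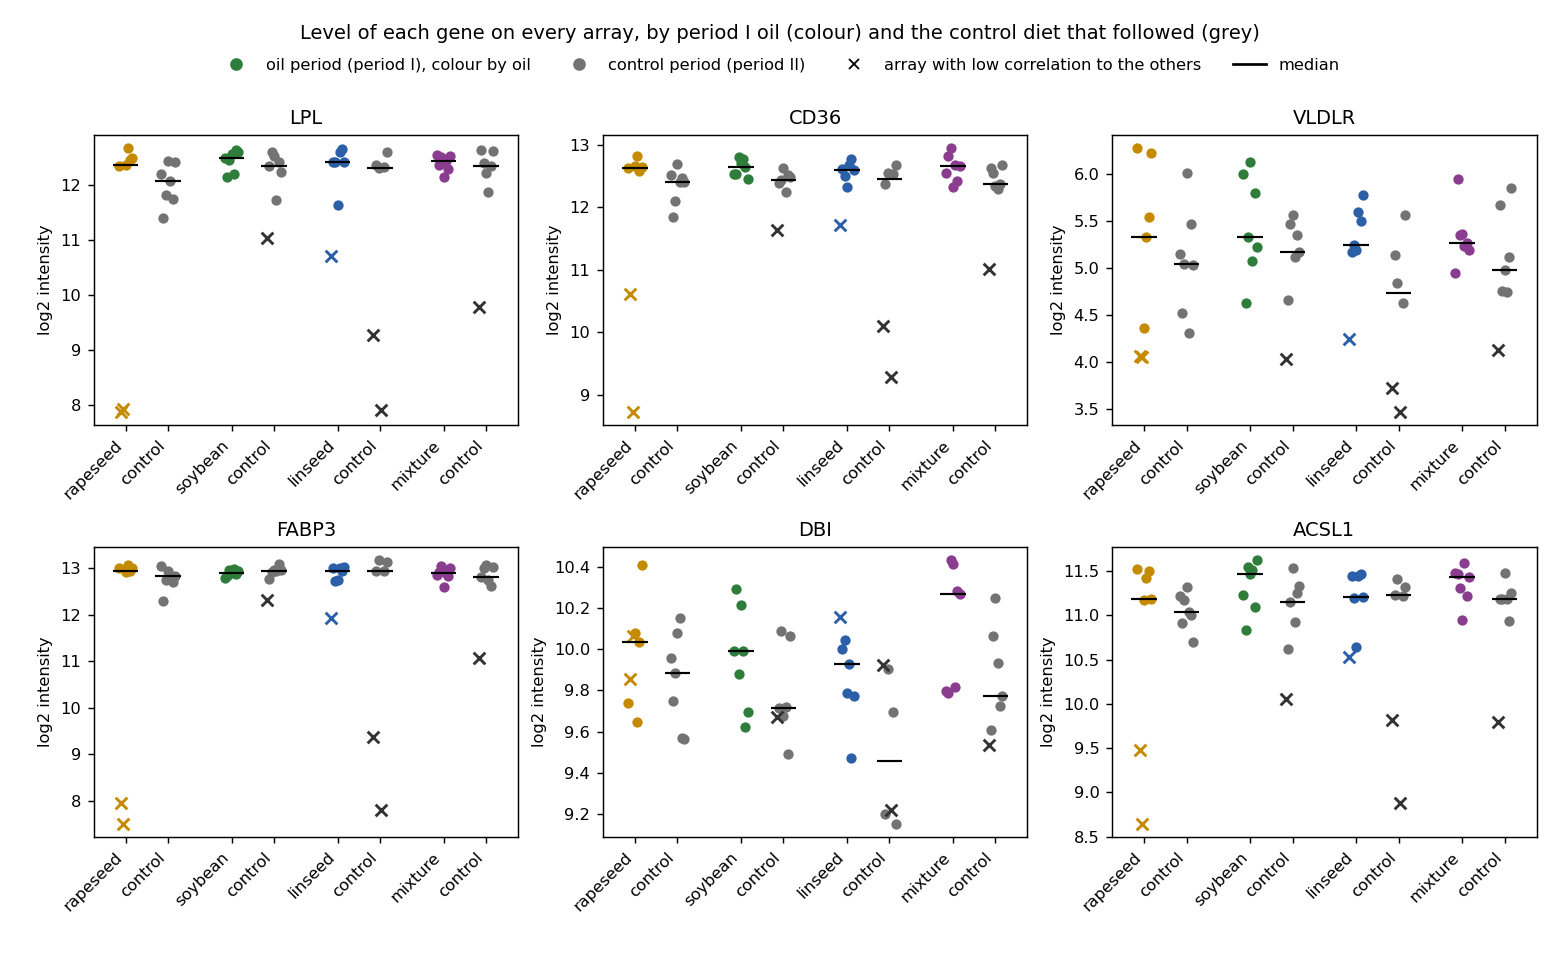
Log2 intensity (y axis) of the 6 genes on every array, with the 4 oil groups in colour, each left of the control period of the same cows in grey; bars are medians and crosses are the 7 arrays apart. LPL, CD36, FABP3 and ACSL1 reach their lowest values on the crosses, while DBI has crosses among the other points.

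The first comparison asked whether the gland expressed these genes differently while oil was fed, over all 4 oils. Only DBI rose: it was 1.18-fold higher in the oil period. The other 5 did not pass the test, with changes from 0.006 for FABP3 to 0.32 for VLDLR. The count of 1 of 6 members higher and 0 of 6 lower stands beside 18.8% of all probe sets called higher and 15.6% called lower. The members' median change was 0.21, against 0.03 over all probe sets. Of all calls, 54.6% were higher in the oil period, and 71.9% when each array was centred on its median.

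LPL frees fatty acids from circulating triacylglycerol. Its lowest, median and highest levels were 7.87, 12.42 and 12.67 in the oil period (28 arrays), against 7.90, 12.29 and 12.63 in the control period (27 arrays). The groups overlapped almost completely, and 18 of 27 cows were higher in the oil period. The change was 0.18 ± 0.26 (SE, 27 cows, adjusted p = 0.630).

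VLDLR had lowest, median and highest levels of 4.05, 5.29 and 6.28 in the oil period, against 3.47, 5.04 and 6.00 in the control period. The ranges overlapped, with 19 of 27 cows higher in the oil period. Its change of 0.32 ± 0.14 had an adjusted p of 0.0762, and it was called when each array was centred on its median (0.39, adjusted p = 0.0405), where 29.4% of all probe sets were called higher.

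CD36, the membrane glycoprotein that binds fatty acids and also lies on the milk fat globule, had levels of 8.73, 12.62 and 12.95 in the oil period, against 9.28, 12.41 and 12.69 in the control period. The groups overlapped, and 20 of 27 cows were higher in the oil period. The change was 0.22 ± 0.19 (adjusted p = 0.382).

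FABP3, the heart-type fatty acid binding protein, had levels of 7.51, 12.92 and 13.07 in the oil period, against 7.81, 12.90 and 13.17 in the control period. Its medians differed by less than the spread of either group, and 16 of 27 cows were higher in the oil period. The change was 0.006 ± 0.32 (adjusted p = 0.990), with a 95% confidence interval from -0.65 to 0.66.

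DBI, the acyl-CoA binding protein, had levels of 9.47, 9.99 and 10.43 in the oil period, against 9.15, 9.72 and 10.25 in the control period. The ranges overlapped, but 21 of 27 cows were higher in the oil period. The change was 0.24 ± 0.06 (adjusted p = 0.00557). DBI was not called with array batch in the fit (0.37, adjusted p = 0.0863), where only the 5 cows with both arrays in 1 batch bear on the change. It was also not called within batch 1 (0.37, adjusted p = 0.195), whose only 2 control period arrays, of cows 1 and 2, both stood apart. Nor was it called within batch 2 (0.27, adjusted p = 0.426), or with array number in the fit (0.12, adjusted p = 0.599). The fits within a batch and with array number did not pair the 2 arrays of a cow. Batch 2 set 3 oil period arrays against 25 control period arrays. All oil period arrays are numbered before the control period arrays, so within a cow array number and period cannot be told apart.

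With array batch in the fit the other 5 members had larger changes, from 0.51 for FABP3 to 0.92 for LPL, and none was called. Cows 1 and 2 are among the 5 cows this fit rests on. LPL was higher in the oil period by 2.76 and 1.45 in these 2 cows, and changed by 0.05, -0.20 and 0.56 in cows 7, 9 and 14. In the 21 cows with neither array apart the same fit gave 0.14 for LPL, 0.10 for FABP3 and 0.16 for VLDLR.

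ACSL1 activates long-chain fatty acids to acyl-CoA. Its levels were 8.65, 11.36 and 11.63 in the oil period, against 8.89, 11.18 and 11.53 in the control period. The groups overlapped, with 20 of 27 cows higher in the oil period and a change of 0.20 ± 0.15 (adjusted p = 0.328).

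**Figure D2:**
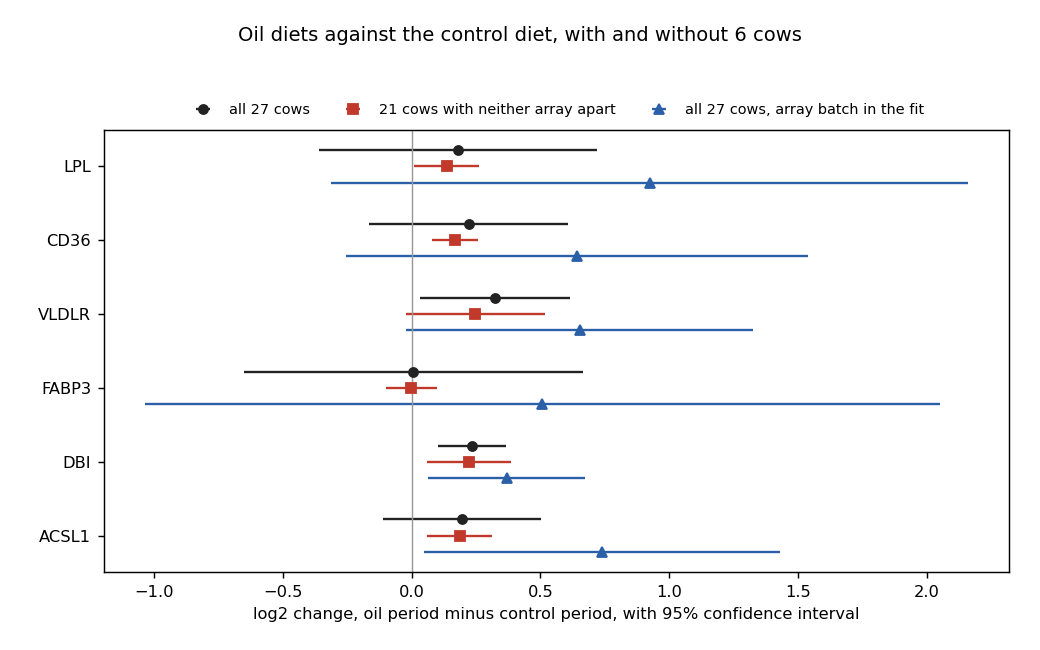
Change in log2 level, oil period minus control period (x axis), with its 95% confidence interval, for each gene in all 27 cows, in the 21 cows with neither array apart, and in all 27 cows with array batch in the fit. Only the interval of DBI lies above 0 in all 3 fits, and the intervals of LPL, CD36, FABP3 and ACSL1 are narrower in the 21 cows. The intervals are not adjusted for the number of probe sets, and DBI was not called with array batch in the fit.

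Without the 6 cows that had an array apart, the standard errors of LPL, CD36, FABP3 and ACSL1 were smaller and 3 members were called. CD36 rose 1.12-fold (0.17 ± 0.04, adjusted p = 0.00499, higher in 16 of 21 cows). ACSL1 rose 1.14-fold (0.19 ± 0.06, adjusted p = 0.0226, 16 of 21 cows), and DBI rose 1.17-fold (0.22 ± 0.08, adjusted p = 0.0304, 15 of 21 cows). These 3 of 6 higher and 0 lower stand beside 18.9% of probe sets called higher and 15.9% called lower in the same 21 cows. LPL changed by 0.14 ± 0.06 (adjusted p = 0.0870), VLDLR by 0.25 ± 0.13 (adjusted p = 0.145) and FABP3 by -0.001 ± 0.05 (adjusted p = 0.986), none of them called.

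In the 21 cows the change of FABP3 had a 95% confidence interval from 0.932-fold to 1.07-fold. The call of LPL turned on scaling, since it was called with each array centred on its median (0.20, adjusted p = 0.0199, beside 30.2% of probe sets called higher) and not after quantile normalization (0.09, adjusted p = 0.346). With array batch in the fit of the 21 cows no member was called: CD36 stood at 0.26 (adjusted p = 0.242), ACSL1 at 0.28 (adjusted p = 0.400) and DBI at 0.42 (adjusted p = 0.296). That fit rests on cows 7, 9 and 14, whose 2 arrays are both of batch 2, and in which CD36 was higher in the oil period by 0.25, 0.16 and 0.38 and ACSL1 by 0.21, 0.21 and 0.41. In the same cows DBI changed by 0.80, 0.58 and -0.12, so that 2 of the 3 were higher.

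Marker lists of other cell types moved with the same contrast in the 27 cows. Among fibroblast markers 5 of 8 fell and none rose, with a mean level of the list from 6.93 to 10.11 in the oil period, against 7.34 to 10.23 in the control period. Among endothelial markers 5 of 9 fell and none rose (3.34 to 4.43 in the oil period, against 3.61 to 4.94 in the control period). Among luminal epithelial markers 4 of 8 fell and none rose (5.89 to 7.62, against 6.05 to 8.26), and among macrophage markers 2 of 8 fell and none rose (3.97 to 5.93, against 4.25 to 6.57). Among myoepithelial markers 1 of 6 fell and none rose, and among the 9 adipocyte markers 2 rose and 3 fell. In the other direction 2 of 5 neutrophil, 2 of 6 skeletal muscle and 1 of 4 erythrocyte markers rose and none fell. Those that rose were dim: ELANE (mean level 1.37), MPO (2.08), MYL1 (1.92), MYH1 (2.21) and SLC4A1 (1.22). The neutrophil markers S100A8, S100A9 and S100A12 had changes of -0.15, -0.19 and -0.50, none called. Some markers that fell were dim too, such as TIE1 (2.04) and ELF3 (2.27). Of 7 T and NK cell markers 1 rose and 1 fell, and none of 5 B and plasma cell markers was called. Of the 9 milk protein and lactose genes 1 rose and none fell. These counts stand beside the 18.8% of all probe sets called higher and 15.6% called lower. No fit with array batch is given here for the markers. The part of these lists in the members' changes was not tested. In biopsies of whole tissue, fewer cells of a type and less RNA per cell cannot be told apart.

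The change on each oil was then estimated separately. No member was called on any oil, while 3.88% of all probe sets were called on rapeseed oil, 13.5% on soybean oil, 1.29% on linseed oil and 0.15% on the mixture. The smallest adjusted p was that of DBI on linseed oil.

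**Figure D3:**
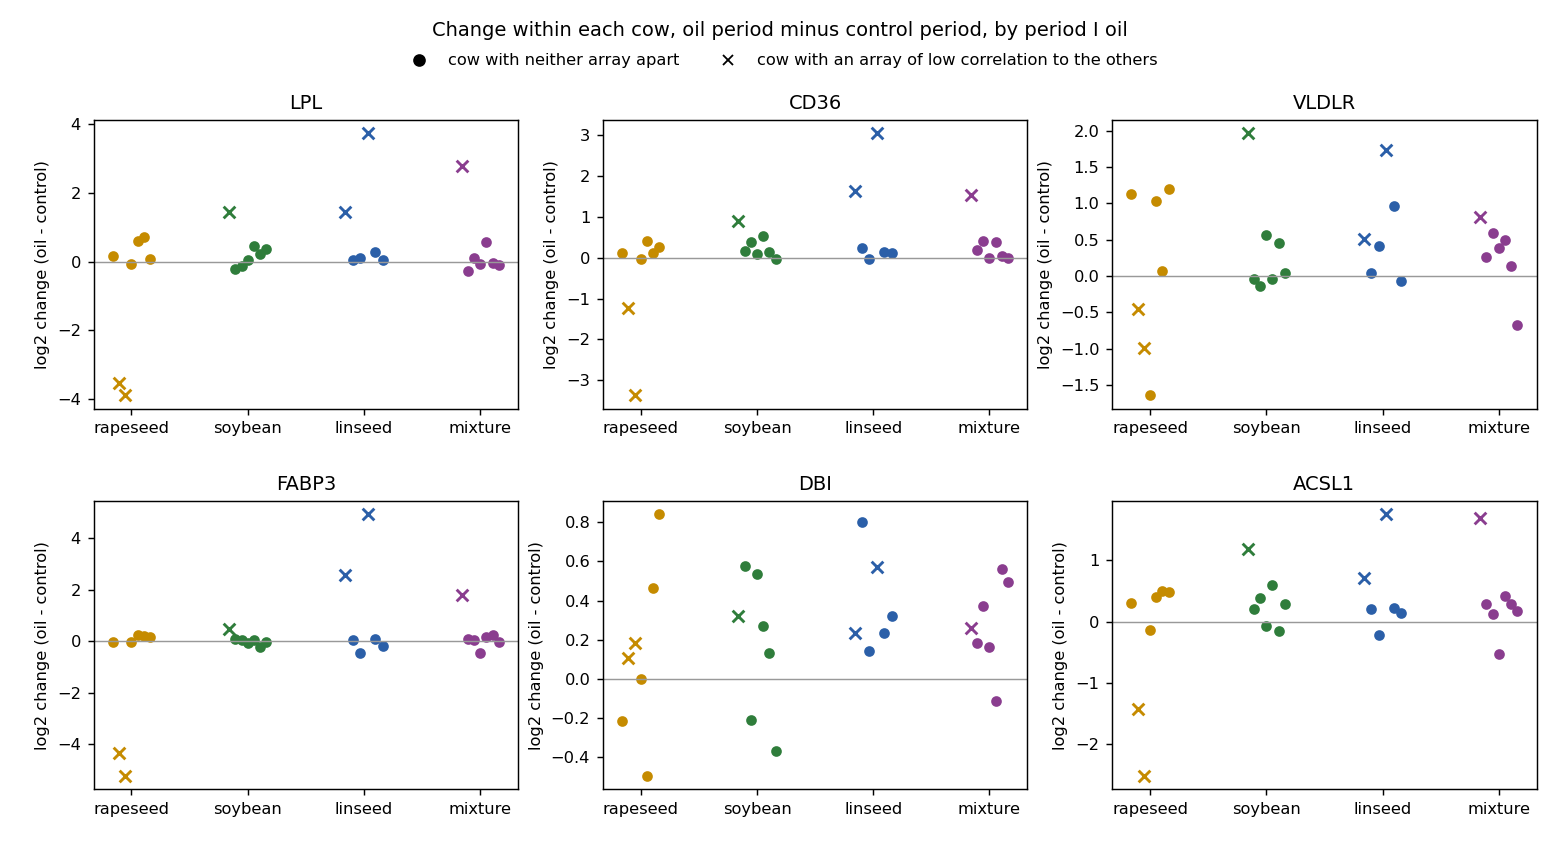
Change in log2 level within each cow (y axis, oil period minus control period) by the oil fed in the oil period; crosses are the 6 cows with an array apart. The rapeseed oil crosses lie lowest and the linseed oil, soybean oil and mixture crosses highest for LPL, CD36, FABP3 and ACSL1, while the remaining cows of each oil lie closer to 0.

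On rapeseed oil, FABP3 ranged from -5.23 through a median of -0.02 to 0.25 over 7 cows, with a mean change of -1.28 ± 0.58 (adjusted p = 0.205). LPL had a mean change of -0.85 ± 0.49 (adjusted p = 0.328) with a median of 0.07, and CD36 one of -0.54 ± 0.34 (adjusted p = 0.384) with a median of 0.11. LPL and CD36 thus had means and medians of opposite sign, and cows 10 and 12, both with an oil period array apart, carried the lowest changes of these 3 genes. In the other 5 cows the changes were 0.12 ± 0.10 for FABP3, 0.29 ± 0.13 for LPL, 0.17 ± 0.09 for CD36 and 0.31 ± 0.13 for ACSL1, none called. ACSL1 over all 7 cows had -0.34 ± 0.29 (adjusted p = 0.521), DBI 0.12 ± 0.13 (adjusted p = 0.615) and VLDLR 0.05 ± 0.28 (adjusted p = 0.941).

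On soybean oil, CD36 was higher in 6 of 7 cows with a change of 0.30 ± 0.34 (adjusted p = 0.596). ACSL1 changed by 0.35 ± 0.29 (adjusted p = 0.443), VLDLR by 0.40 ± 0.28 (adjusted p = 0.364), LPL by 0.31 ± 0.49 (adjusted p = 0.710), DBI by 0.18 ± 0.13 (adjusted p = 0.366) and FABP3 by 0.05 ± 0.58 (adjusted p = 0.969). Without cow 2, whose control period array stood apart, CD36 was at 0.21 ± 0.09 (adjusted p = 0.122), LPL at 0.13 ± 0.12, VLDLR at 0.14 ± 0.26 and FABP3 at -0.02 ± 0.09. The soybean oil values of the members were therefore smaller without that cow, except that FABP3 stayed near 0.

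On linseed oil, DBI was higher in 6 of 6 cows, from 0.14 through a median of 0.28 to 0.80, with a change of 0.38 ± 0.14 (adjusted p = 0.145). LPL was also higher in 6 of 6 cows, with a median of 0.19 and a mean of 0.94 ± 0.52 (adjusted p = 0.335), and FABP3 had a median of 0.07 and a mean of 1.16 ± 0.63 (adjusted p = 0.319). CD36 had a mean of 0.85 ± 0.37 (adjusted p = 0.222), VLDLR of 0.60 ± 0.31 (adjusted p = 0.297) and ACSL1 of 0.47 ± 0.31 (adjusted p = 0.423). The highest changes of LPL, CD36, FABP3 and ACSL1 came from cow 15 and the next from cow 5. Without these 2 cows the values were 0.12 ± 0.14 for LPL, 0.11 ± 0.11 for CD36, -0.13 ± 0.11 for FABP3 and 0.09 ± 0.15 for ACSL1, while DBI stayed at 0.37 ± 0.19 (adjusted p = 0.320).

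On the mixture, DBI was higher in 6 of 7 cows (0.27 ± 0.13, adjusted p = 0.346), as were VLDLR (0.29 ± 0.28, adjusted p = 0.710) and ACSL1 (0.35 ± 0.29, adjusted p = 0.646). LPL had a mean of 0.42 ± 0.49 (adjusted p = 0.756) with a median of -0.06, CD36 of 0.36 ± 0.34 (adjusted p = 0.698) and FABP3 of 0.26 ± 0.58 (adjusted p = 0.891). Without cow 1, whose control period array stood apart, LPL was at 0.03 ± 0.12, CD36 at 0.16 ± 0.09, FABP3 at 0.005 ± 0.09 and ACSL1 at 0.12 ± 0.12. DBI was little moved, at 0.28 ± 0.15.

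Whether the oils differed in these changes was tested directly. No probe set passed (0% of 10680 by limma's moderated F, with 486 at an unadjusted p under 0.05), and the members' unadjusted p-values ran from 0.0567 for FABP3 to 0.619 for VLDLR, with adjusted values of 0.948 or more. The largest gap between any pair of oils was rapeseed minus linseed oil for FABP3, at -2.44 ± 0.85 (p = 0.00809, adjusted p = 0.638). The same pair of oils gave -1.79 ± 0.72 for LPL and -1.39 ± 0.50 for CD36. In the cows with neither array apart these 3 gaps turned to 0.25 ± 0.15, 0.17 ± 0.19 and 0.06 ± 0.14. The DBI gap was -0.26 in both sets of cows.

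Levels on the 4 oils were also set against each other within the oil period. No probe set differed (0% of 10680, with 277 at an unadjusted p under 0.05), and the members' adjusted p-values were all 1.00. DBI had the order mixture (mean 10.11), rapeseed (9.97), soybean (9.95) and linseed oil (9.88) over 7 arrays each, and its unadjusted p was 0.416. VLDLR had the order soybean (5.45), mixture (5.32), linseed (5.24) and rapeseed oil (5.12), with an unadjusted p of 0.768. Without the arrays apart rapeseed oil had the highest VLDLR mean (5.55), before soybean (5.45), linseed (5.41) and the mixture (5.32). Rapeseed oil had the lowest mean of LPL (11.16), CD36 (11.81), FABP3 (11.49) and ACSL1 (10.71) over all arrays. Without its 2 arrays apart it had the highest mean of each of these 4 genes (12.46, 12.67, 12.98 and 11.36 over 5 arrays), so its place in the order of these 4 genes and of VLDLR rests on those arrays. No neighbours in these orders differed beyond their spread by the test.

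After the switch to the control diet, former oils did not separate the members either. No probe set passed in the control period (0% of 10680, with 397 at an unadjusted p under 0.05), and the members' adjusted p-values were 0.976 or more. The smallest unadjusted p was that of DBI (0.122), with means of 9.85 after rapeseed, 9.84 after the mixture, 9.77 after soybean and 9.52 after linseed oil. Without the arrays apart the mixture (9.89) stood above rapeseed oil (9.85), and linseed oil was still lowest (9.49). FABP3 (11.56), CD36 (11.58), LPL (11.12) and ACSL1 (10.65) had their lowest means after linseed oil over 6 arrays, 2 of which stood apart. Over the 4 others those means were 13.04, 12.53, 12.40 and 11.30.

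The 7 arrays apart separated the members sharply. Levels on them are given as the difference from the median of the arrays of the same period that did not stand apart, 25 in the oil period and 23 in the control period, as a description, since the arrays were picked by their overall profile. FABP3 was lower on all 7, by a median of -3.56 (from -5.42 to -0.62), and only 0.384% of probe sets had a lower median. LPL was lower on all 7 by a median of -3.07 (from -4.58 to -1.31, with 0.543% of probe sets lower). CD36 followed at -2.04 (from -3.91 to -0.83), ACSL1 at -1.40 (from -2.78 to -0.90) and VLDLR at -1.27 (from -1.65 to -0.99). DBI did not follow the other 5: its median was -0.08, from -0.53 to 0.18, and 44.9% of probe sets were lower.

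Milk protein and lactose genes, taken as a mean, had their lowest value of each period on an array apart. The mean of the 9 listed genes had its lowest value at 10.67 in the oil period and 10.41 in the control period over all arrays. Without the arrays apart the lowest values were 12.13 and 12.13. Fibroblast markers reached 10.11 in the oil period and 10.23 in the control period, against highest values of 9.18 and 8.77 without those arrays. The part of these lists in the members' values was not tested.

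**Figure D4:**
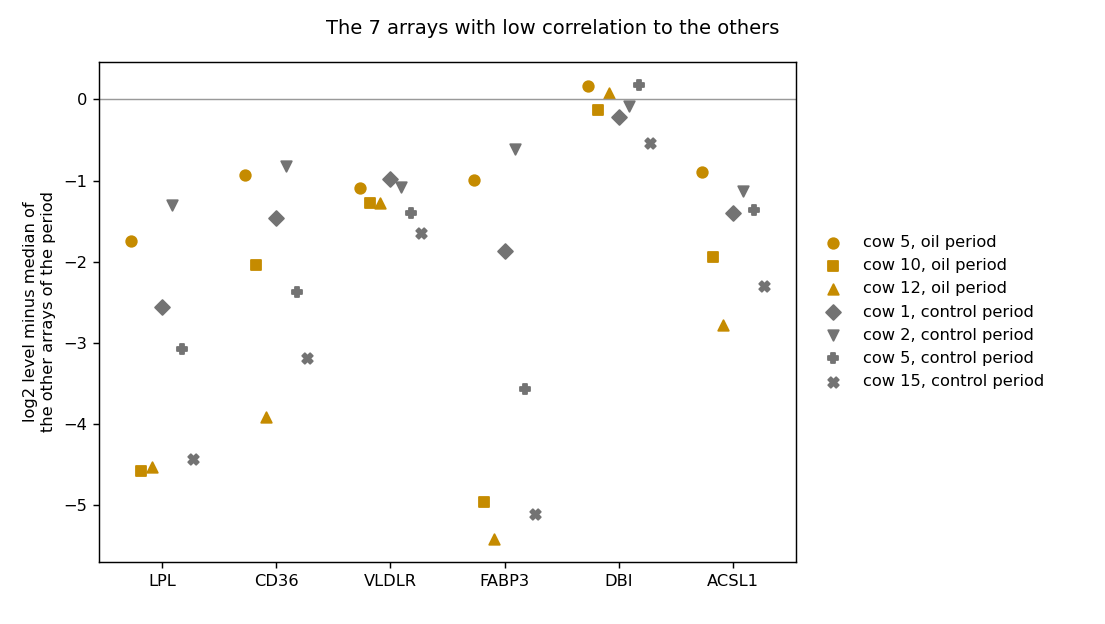
Log2 level on each of the 7 arrays apart, minus the median of the other arrays of the same period (y axis), for each gene; oil period arrays are coloured and control period arrays grey. All points lie below 0 for 5 genes, down to -5.42 for FABP3, whereas DBI stays between -0.53 and 0.18.

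Co-variation among the members was measured within each period and over the within-cow changes, without the arrays apart, which had the lowest mean correlations with the other arrays. The 10 pairs among LPL, CD36, VLDLR, FABP3 and ACSL1 were all positive in the 25 oil period arrays, the 23 control period arrays and the 21 cows' changes. After adjustment over the 15 pairs, permutation tests of Pearson's r passed for 6 of these 10 pairs in the oil period, 6 in the control period and 2 for the changes. Positive r was common among other genes: in the control period 75.2% of the 6636 named genes had an r with LPL below 0.289. Whether the members' pairs passed more often than pairs of other genes was not tested. None of the 5 pairs with DBI passed in any of the 3 sets, with r from -0.31 to -0.11 in the oil period, -0.24 to 0.16 in the control period and -0.33 to 0.08 for the changes.

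CD36 and FABP3 were the pair most alike in the oil period (r = 0.727, adjusted permutation p = 0.00075, rho = 0.599, adjusted permutation p = 0.0295, and r = 0.576 without the 2 arrays farthest from the median of CD36). In the control period they had r = 0.714 (adjusted permutation p = 0.00502) and rho = 0.574 (adjusted permutation p = 0.0153), with r = 0.425 without the farthest 2. This was the sole pair that passed on both measures in both periods. LPL and CD36 had r = 0.523 and rho = 0.412 in the oil period, where r was 0.332 without the farthest 2 and rho did not pass, and r = 0.811 and rho = 0.720 in the control period.

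The changes within cows tied FABP3 to ACSL1, the carrier to the activating enzyme. Their r was 0.828 over 21 cows (rho = 0.716, and r = 0.666 without the farthest 2). CD36 and ACSL1 had r = 0.607 (rho = 0.590, and r = 0.510 without the farthest 2). FABP3 and ACSL1 also passed in each period, with r = 0.571 in the oil period and 0.616 in the control period, although their rho of 0.359 in the oil period did not pass. LPL and ACSL1 in the oil period had r = 0.677 and rho = 0.312, with r = 0.295 without the farthest 2, so that relation rests on those arrays. VLDLR passed only in the control period, with CD36 (r = 0.586) and LPL (r = 0.501).

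**Figure D5:**
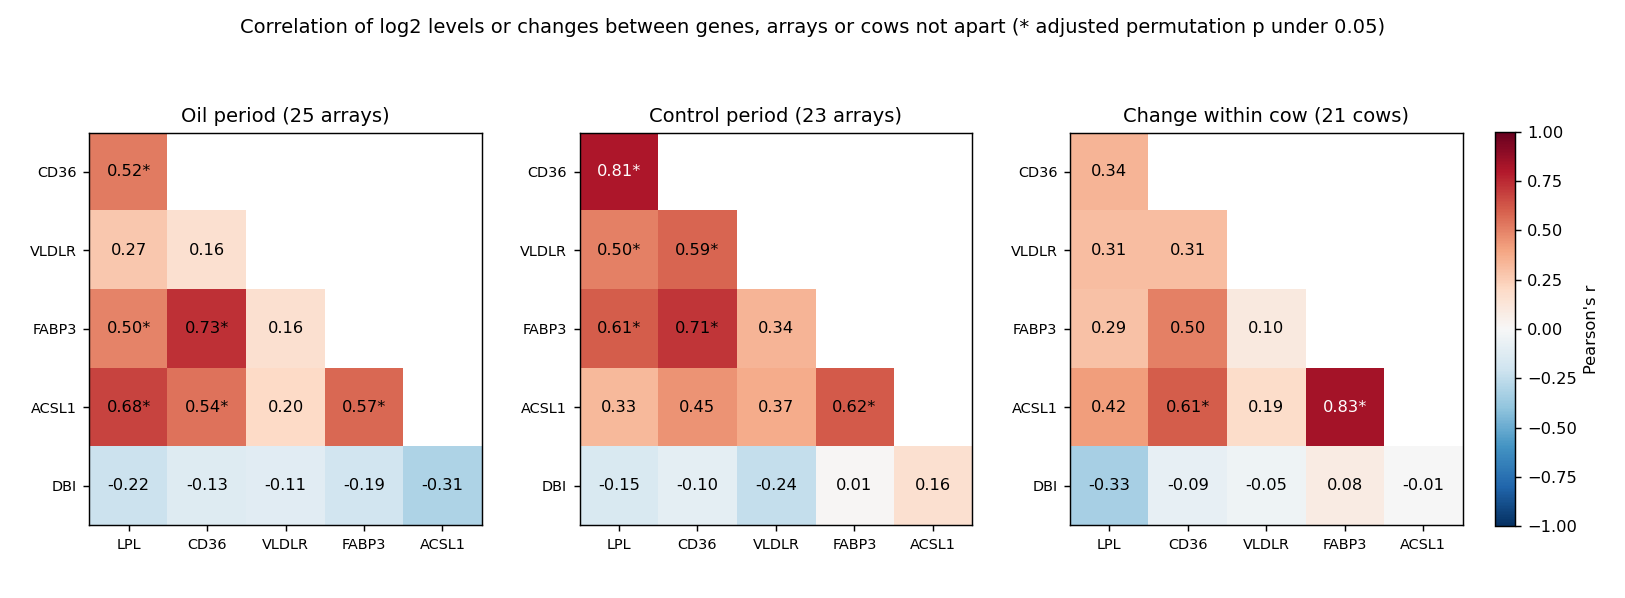
Pearson's r between each pair of genes (cells, colour scale from -1 to 1) over oil period arrays, control period arrays and within-cow changes, without arrays apart; stars mark an adjusted permutation p under 0.05. The 10 pairs without DBI are positive in all 3 panels, and no pair with DBI carries a star.

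Each member was also set against the mean of 12 cell type marker lists, 72 relations in each period. In the oil period 11 relations passed by Pearson's r and 2 by Spearman's rho, and in the control period 5 and 9. Those that passed by r in both periods were 5. CD36 and FABP3 varied together with the milk protein and lactose genes: r was 0.734 and 0.782 in the oil period, and 0.852 and 0.641 in the control period. LPL, CD36 and ACSL1 ran against the luminal epithelial list, with r of -0.635, -0.655 and -0.626 in the oil period and -0.623, -0.636 and -0.647 in the control period, though none of these 3 passed by rho in the oil period. Of the other 6 that passed in the oil period, LPL, CD36 and ACSL1 with fibroblast and LPL and CD36 with macrophage markers were negative. ACSL1 with skeletal muscle markers was positive, and the measured markers of that list were dim, with mean levels from 1.44 to 2.54. No relation with the adipocyte or the endothelial list passed by r, and DBI passed with no list by r.

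The 3 named genes most like each member were found by Pearson's r over the 25 oil period arrays and then read in the 23 control period arrays, which did not choose them. For LPL they were HBS1L (r = 0.860, and 0.696 in the control period), a translational GTPase, SPCS3 (0.772 and 0.289), a signal peptidase subunit, and SUOX (0.771 and 0.624), sulfite oxidase. For CD36 they were SLC39A9 (0.828 and 0.507), a zinc transporter, SLC35B1 (0.818 and 0.613) and PPA1 (0.811 and 0.814), the inorganic pyrophosphatase. PPA1 ranked 9 of 6636 genes for CD36 in the control period, the best standing of any of the 18 chosen genes.

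For FABP3 the genes were SLC35C1 (0.824 and 0.510), a GDP-fucose transporter, POLR2L (0.819 and 0.630), a subunit of RNA polymerases, and TMEM97 (0.812 and 0.439). For ACSL1 they were PXMP2 (0.829 and 0.331), a peroxisomal membrane protein, SUOX (0.806 and 0.347) and MUC1 (0.806 and 0.514), the mucin of the milk fat globule. The lists of VLDLR and DBI held less well. VLDLR had TMEM79 (0.681 and 0.005), RDH14 (0.680 and 0.559) and RASSF1 (0.666 and 0.0997), and DBI had RAB9A (0.691 and 0.316), LTA4H (0.689 and 0.186) and SLC35F6 (0.679 and 0.124).

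Neighbouring genes of the pathway were counted in the comparison of all oils with the control diet. Of 78 measured genes in 8 lists, 12 rose and 12 fell, or 18 rose and 10 fell when each array was centred on its median. The main counts are 15.4% of the listed genes in each direction, beside the 18.8% of all probe sets called higher and 15.6% called lower. The centred counts are 23.1% and 12.8% of the listed genes, beside 29.4% of all probe sets called higher and 11.5% called lower. No fit with array batch is given here for the listed genes. Over all probe sets that fit called 1645, against 3669 without array batch. In the lipoprotein lipase partners, 2 of 7 rose and 1 fell. LMF1, the endoplasmic reticulum factor that matures lipases, fell by 0.56 ± 0.12 (adjusted p = 0.00071). APOA5 (0.18) and LIPC (0.17), liver genes with mean levels of 1.76 and 1.36, rose. Neither passed after quantile normalization (adjusted p = 0.124 for APOA5 and 0.189 for LIPC), and LIPC did not pass in the 21 cows with neither array apart (adjusted p = 0.0513). ANGPTL4, the inhibitor of LPL, stood at -0.03 ± 0.17 (adjusted p = 0.901). In the lipoprotein receptors, none of 4 rose and 1 fell: LSR, the lipolysis-stimulated receptor, by 0.36 ± 0.08 at a mean level of 2.67.

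None of 8 membrane fatty acid transporters was called over all cows. In the 21 cows with neither array apart 2 of them rose, beside 18.9% of all probe sets called higher. SLC27A6, a fatty acid transport protein of the lactating gland, rose by 0.31 ± 0.11 (adjusted p = 0.0396). SCARB2, a relative of CD36 in lysosomes, rose by 0.26 ± 0.07 (adjusted p = 0.00912). Of the 9 binding proteins, 2 that are described here rose. FABP1 (0.27) and FABP2 (0.20), the liver and intestinal forms, rose at mean levels of 1.65 and 1.22, although FABP2 did not pass after quantile normalization (adjusted p = 0.114). FABP4, the adipocyte form, was bright at 11.45 and stood at 0.31 ± 0.19 (adjusted p = 0.209), and in the 21 cows it rose by 0.23 ± 0.06 (adjusted p = 0.00593). FABP5, the epidermal form, stood at 0.06 ± 0.17 and was not called.

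In the acyl-CoA binding list 1 of 5 rose and none fell: SCP2, sterol carrier protein, by 0.16 ± 0.06 (adjusted p = 0.0494). In the acyl-CoA synthetases and thioesterases, 2 of 13 rose and 1 fell. ACOT13, a thioesterase that releases fatty acid from acyl-CoA, rose by 0.48 ± 0.09 (adjusted p = 0.000188) and ACOT2 by 0.27 ± 0.08, while the peroxisomal ACOT8 fell by 0.30 ± 0.06. Mean levels were 6.68 for ACOT13, 2.55 for ACOT2 and 4.08 for ACOT8. No other long-chain synthetase was called over all cows: ACSL5 stood at -0.32 ± 0.19 and ACSL6 at 0.08 ± 0.05. ACSL6 rose in the 21 cows (0.13 ± 0.04, adjusted p = 0.0197) and with each array centred on its median (0.14, adjusted p = 0.0182). It did not pass after quantile normalization (0.004, adjusted p = 0.961), and it was dim, with a mean level of 1.55.

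Downstream, 2 of 19 milk fat synthesis and globule genes rose and 4 fell. SCD5, a stearoyl-CoA desaturase with a mean level of 6.11, rose by 0.53. The brighter desaturase SCD (12.35) stood at -0.09 ± 0.26 (adjusted p = 0.817). DGAT2, which adds the last fatty acid to triacylglycerol, was dim at 2.14 and rose by 0.26. AGPAT1 (-0.87), which acylates lysophosphatidic acid, fell, as did ACACA (-0.78), acetyl-CoA carboxylase, and DGAT1 (-0.39), dim at a mean level of 2.40. In the lipid regulators, 3 of 13 rose and 4 fell. NR1H2 (-0.63), a liver X receptor, SREBF1 (-0.48) and its protease MBTPS1 (-0.27) fell, while MBTPS2 (0.32) and RXRG (0.13) rose, although RXRG did not pass after quantile normalization (0.04, adjusted p = 0.380). Mean levels were 5.25 for NR1H2, 2.96 for SREBF1, 6.15 for MBTPS1, 4.96 for MBTPS2 and 1.52 for RXRG. PPARG, a nuclear receptor for fatty acids, stood at -0.04 ± 0.13 (adjusted p = 0.850).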

How the data were processed

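Mammary biopsies of 28 cows were measured on 1-colour Affymetrix arrays from 2 micrograms of total RNA. The deposited values are linear intensities, 1 per probe set and array. RMA and GCRMA are named in the submitters' processing notes, with neither version nor role. Here log2 was taken, with no other scaling. Of 11495 probe sets, 112 were controls, and those with identical values were merged, leaving 10680. RefSeq accessions gave 1 symbol to 6649 of them, covering 6636 genes, several to 2 and none to 4029.

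Arrays were grouped by the labels' cow, period and oil. The 2 arrays of a cow are a pair, being from 1 animal. The correlation of deviations within a cow had a median of 0.176 (from -0.20 to 0.68) and was over 0.1 in 17 of 27 cows. Changes were fitted with limma 3.58.1 in R 4.3.3, cow as a fixed block, two-sided, adjusted by Benjamini-Hochberg over 10680 probe sets and called under 0.05. The alternative fits within a batch or with array number had no cow block. Oils were compared by limma's moderated F. Correlations used two-sided permutation tests (100000 draws) in Python 3.11.15, adjusted over 15 pairs or 72 marker relations. The fits were tested on simulated data.

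The members and lists were chosen with earlier results of these data known. Besides the 6 members, every called gene of a pathway list but 1 is named (the 5 with the smallest p where more were called), with the 3 genes most like each member. ANGPTL4, FABP4, FABP5, SLC27A6, SCARB2, ACSL5, ACSL6, PPARG and SCD were named after their values were seen. Alternatives were other scalings, other blocks, the array batch, array number, brighter probe sets, and leaving out cows or arrays apart. Array batch and number are read from array names, and what they stand for is not given in the sources used here. The genome build and coordinates are not used here. The result of 1 gene of the binding protein list is not reported here.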

Additional observations from a re-analysis of the deposited data

Results flagged for a closer look

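In 17 of 72 groups of 6 or 7 values, 1 cow lay farther from the others than Dixon's 95% value allows. Chance flags about 1 in 20 groups. Of these flags, 16 belonged to cows with an array apart and 1 to another cow.

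Cow 1, on the mixture, was low in the control period for LPL (9.78), CD36 (11.01), FABP3 (11.06) and ACSL1 (9.79). Its changes were correspondingly high, at 2.76 for LPL, 1.54 for CD36, 1.78 for FABP3 and 1.68 for ACSL1. Cow 2, on soybean oil, was low in the control period for CD36 (11.64) and FABP3 (12.31), with high changes of LPL (1.45), VLDLR (1.96) and FABP3 (0.47).

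Cow 5, on linseed oil, was low in the oil period for CD36 (11.72), VLDLR (4.24) and FABP3 (11.93). Cow 3, on the mixture, had the highest VLDLR level of its group in the oil period (5.94) on an array that did not stand apart. DBI had no such value in any group.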

How the results depend on the processing

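The cause of each of the following differences was not tested. Over 12 alternatives to the fit of all oils, DBI was positive in 12 and called in 8, and it was not called with array batch (0.37), within batch 1 (0.37), within batch 2 (0.27) or with array number (0.12). In these 4 fits 0 members were called higher, against 1 in the fit of all 27 cows, and the probe sets called were 1645, 597, 403 and 819, against 3669. Every fit within a batch or with array number had no cow block, so its values are not changes within cows. Probe sets with a mean level above 4 gave 1520 calls among fewer tested. Without the cow as a replicate block, 3379 were called and DBI stayed called (adjusted p = 0.0125). Centring each array called 2 members, VLDLR being added at 0.39, beside 29.4% of probe sets called higher. Without the 6 cows 3 members were called, with CD36 at 0.17 and ACSL1 at 0.19, and the same 3 members without the replicate block (0.17 and 0.19) and after quantile normalization (0.13 and 0.17). Centring those 21 cows called 4, with LPL at 0.20, CD36 at 0.23 and ACSL1 at 0.25, beside 30.2% of probe sets called higher. Chosen after seeing the data, the fit of the 21 cows with array batch gave DBI 0.42 and 173 probe sets, that with array number gave 0.011 and 9, and batch 2 without arrays apart gave 0.25 and 1121, each with 0 members called. FABP3 turned negative after quantile normalization (-0.000126), without the 6 cows (-0.00123 with and without the replicate block) and in both together (-0.00288). VLDLR turned negative within batch 2 (-0.00119, or -0.124 without arrays apart). On rapeseed oil, leaving out cows with an array apart turned LPL to 0.29, ACSL1 to 0.31, CD36 to 0.17 and FABP3 to 0.12, and array batch turned ACSL1 to 0.15. FABP3 turned to -0.0235 on soybean oil and -0.13 on linseed oil, and the gap of rapeseed minus linseed oil to 0.17 for LPL, 0.22 for ACSL1, 0.0598 for CD36, 0.25 for FABP3 and 0.0214 for VLDLR. No call of a member changed under any alternative for single oils or for differences between oils. With arrays apart included, 10 of 15 pairs were called in each period and for the changes, against 6, 6 and 2, and 5 for the changes after quantile normalization. The r of DBI then turned positive in the control period with LPL (0.254), CD36 (0.259) and VLDLR (0.0675), and for the changes with LPL (0.114), CD36 (0.150), VLDLR (0.0904) and ACSL1 (0.142). It also turned with CD36 in the control period after quantile normalization (0.0193) and with ACSL1 for the changes after centring (0.0124). The 5 marker relations that passed in both periods passed under all 4 alternatives added for them. In the control period 1 of these, the larger array batch, holds all 23 arrays used, so there it repeats the same data. Each member has 1 probe set, so averaging over probe sets could give no other value. No background call accompanies the intensities, so the changes of genes as dim as FABP2 (mean level 1.22) and LIPC (1.36) cannot be set against background.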
